A study of Drosophila melanogaster with 24 samples.

Results

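Glutathione S-transferases are the enzymes that join glutathione to reactive compounds, and the genes described here are those of *Drosophila melanogaster*. They were taken as every gene whose symbol, in the annotation of the array, is Gst with a class letter and a number, together with *Mgstl*, the microsomal glutathione S-transferase, and *gfzf*, a nuclear protein that carries a glutathione S-transferase domain. Probe sets paired with exactly 1 symbol gave 36 such genes of 11981 genes on the array, through 40 probe sets, and each gene is described by the brighter one where it had 2. A filter on low Signal left 34 of the 36 in the tests, whereas *GstD4* and *GstD6* fell below it. Of the 34, 16 differed in transcript abundance among the 6 selection lines, beside 12.3% of all probe sets tested, and 18 were higher in males and 12 in females, beside 36.1% and 42.4%. Between resistant and sensitive lines 7 were higher and 4 lower, beside 5.24% and 3.55%. R2 minus S2 called 6 as higher and 5 as lower, beside 5.24% and 3.84%. R1 minus S1 called 4 as higher and 0 as lower, beside 4.6% and 3.51%. This last count of 4 was 2 to 11 when single arrays were left out, with 11 without the first pool of S1 females. *GstD9* was the only member whose resistant and sensitive arrays did not overlap in either sex, which held for 1.5% of all probe sets tested.

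Cytosolic glutathione S-transferases attach the thiol of glutathione to electrophiles such as plant toxins, insecticides and the aldehydes that form when lipids are oxidised, which makes these compounds more soluble and easier to export. In insects the Delta and Epsilon classes have expanded into clusters of neighbouring genes, while the Theta, Zeta, Omega and Sigma classes are shared more widely among animals. The fly gene *cnc*, which encodes the counterpart of the vertebrate factor Nrf2, is known to induce several of them under oxidative stress.

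The flies came from 6 lines drawn from 1 heterogeneous base population: R1 and R2 had been selected for resistance to ethanol, S1 and S2 for sensitivity, and C1 and C2 were kept unselected. At generation 25, 2 pools of 15 virgin flies aged 3 to 5 days were taken from each line and sex, which gives 12 groups of 2 arrays and 24 arrays, hybridised with RNA of the whole body. The labels state that all flies, controls included, had been exposed to ethanol vapor before the RNA was extracted, whereas the study's methods name no exposure of the flies used for the arrays, and which of these holds was not settled here. Nothing in the sources says that pools came from separate cultures, and the p-values below measure the spread between pools; selection itself was replicated in 2 lines a direction. Per the methods the base population was kept as 2 replicates, each of which founded 1 line of every kind, so that R1, S1 and C1 may share a founding replicate, as may R2, S2 and C2, although the methods do not tie the numbers to the replicates.

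Abundance is given as the deposited Signal of each probe set, a linear intensity, and differences are on the log2 scale, ± the standard error of the fit, with 8 arrays in each selection group. A Signal has no common scale between probe sets, so that levels are compared within a gene. Over all non-control probe sets the median Signal lay between 131 and 149.8 on male arrays and between 55.7 and 81.0 on female arrays, neither at the common median to which the methods say Signal was scaled, so that the scale between the sexes was not settled. Sex markers matched the labels: the summed Signal of 9 accessory gland and testis genes ranged from 66826 to 97876 on male arrays and from 66.2 to 214 on female arrays, and that of 6 female fat body and ovary genes was 57180 to 79891 in females and 179.6 to 305 in males. The pools of S1 females stood apart. Their 2 arrays held the largest difference between pools for 13 of the 34 members, against 30.5% of all probe sets tested, and 7 members differed more than 2-fold there. Counts that moved by over 1.5 times without these pools are given with and without them, as are members whose line effect, or call between resistant and sensitive lines, changed.

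A line effect, tested over the 6 lines with the sexes averaged at an adjusted p under 0.001 (limma, Benjamini-Hochberg over all probe sets tested), was found for 16 of 34 members (47.1%), beside 12.3% of all probe sets tested. They were 9 of 13 Epsilon genes, 4 of the 9 Delta genes tested, 1 of 3 Omega genes, 1 of 2 Zeta genes and *Mgstl*, and none of the 4 Theta genes, *GstS1* or *gfzf*. Among the 16, C1 was the highest line in 6 and the lowest in none, while S2 was the highest in 1 and the lowest in 6. The count was 12 to 20 when single arrays were left out and 19 without both S1 female arrays. *GstS1*, *GstE9* and *GstE13* had a line effect without either S1 female pool and without both, *GstE2* and *GstD10* without the first alone, and *GstE14* lost its line effect without either one. A contrast between lines or selection groups counted as called if the member had a line effect or an interaction and the contrast had an unadjusted p under 0.05. Of the 89 calls so made among the members, for resistant, sensitive and control lines and for lines within a pair or group, 17 had an adjusted p of 0.05 or more. For resistant minus control these were *GstD3* (0.0518), *GstE1* (0.133), *GstE10* (0.0719) and *GstO3* (0.143), and for sensitive minus control *GstD3* (0.109), *GstE14* (0.101) and *GstO3* (0.0521). For R1 minus S1 they were *GstE6* (0.0691) and *GstE11* (0.0714), for resistant minus sensitive *GstE3* (0.105), and the other 7 lay between lines of the same selection. Where the calls lay is shown in the map of the 34 genes.

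**Figure D1:**
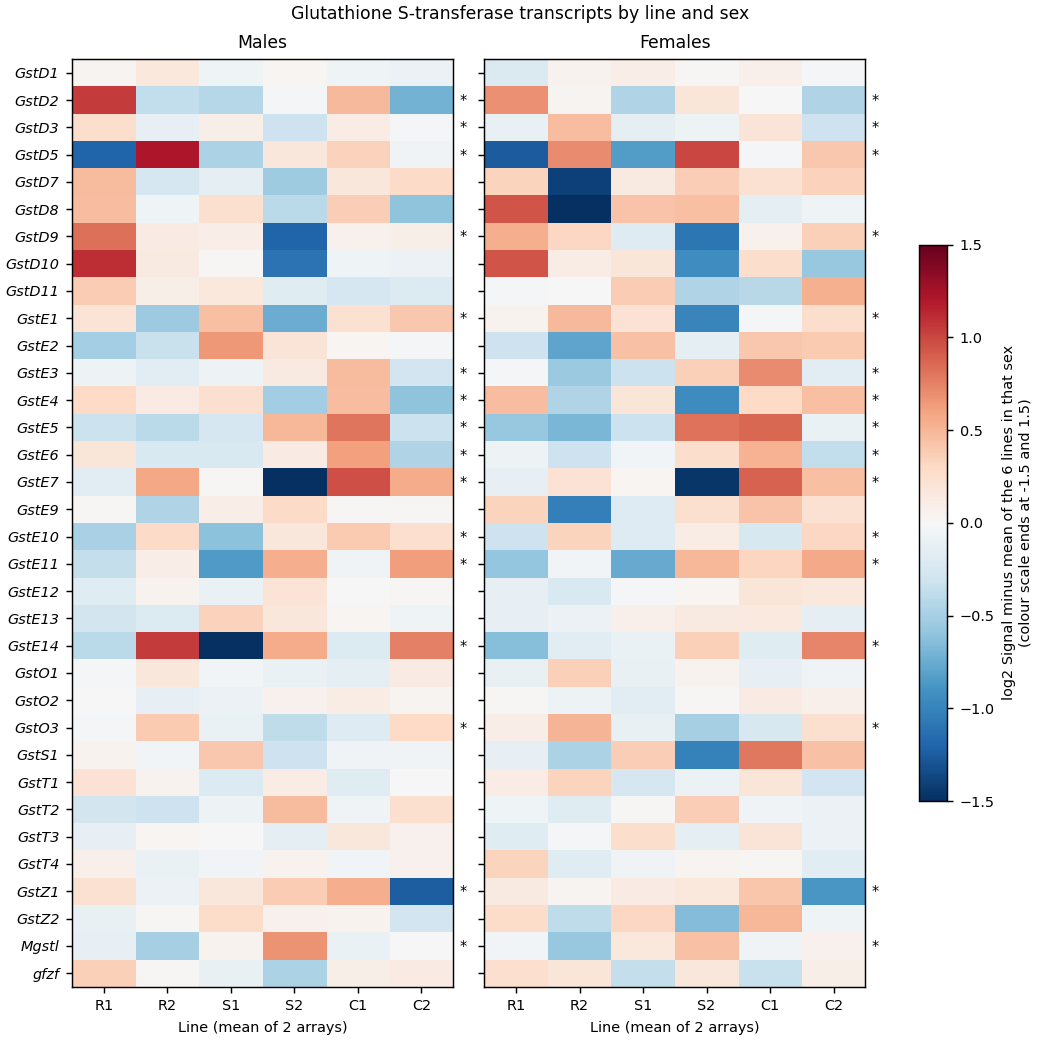
Colour gives the mean log2 Signal of 2 arrays minus the mean of the 6 lines, for 34 genes (vertical axis) and 6 lines (horizontal axis) in males and in females, and an asterisk marks the 16 genes with a line effect. The S2 column was blue for *GstD9*, *GstE1*, *GstE4* and *GstE7* in both sexes, and the C1 column was red for *GstE3*, *GstE5*, *GstE6* and *GstE7*.

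Epsilon genes made up 9 of the 16 members with a line effect. In the current genome annotation *GstE10* and *GstE1* to *GstE7* lie next to each other on chromosome arm 2R, followed by *GstE8*, which is not analysed here, and *GstE9*. Probes were not checked for matches to neighbouring copies, so that signal from a close paralog was not tested. *GstE7* had the smallest p for the line effect of all members (adjusted p = 9.86e-10). Its Signal in males was 1265 and 1200.1 in R1, 2047 and 2104 in R2, 1613 and 1205 in S1, 381 and 329.9 in S2, 2949 and 2496 in C1 and 2157 and 1931 in C2. In females it was 733 and 884 in R1, 1017 and 1012 in R2, 753 and 1054 in S1, 309 and 325 in S2, 1573 and 1672 in C1 and 1118 and 1285 in C2. The 4 arrays of S2 were the lowest of all 24, no S2 array overlapped an array of any other line, and C1 was the highest line in both sexes. *GstE7* was 1.97-fold higher in the resistant lines, set against the sensitive ones (0.98 ± 0.08 on the log2 scale, adjusted p = 3.75e-07). The difference lay in the second pair of lines: R2 exceeded S2 by 2.11 ± 0.11, a 4.33-fold difference, while R1 minus S1 was -0.16 ± 0.11 (adjusted p = 0.381). Both selected groups were below the controls, resistant minus control being -0.59 and sensitive minus control -1.57, contrasts that share the control arrays.

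*GstE5* and *GstE6*, neighbours of *GstE7*, had their high values in other lines. Signal of *GstE5* in males was 1019 and 992 in R1, 1023 and 882 in R2, 1203 and 934 in S1, 1774 and 1792 in S2, 2180.1 and 2211 in C1 and 1047 and 962 in C2. Its female values were 502 and 448 in R1, 423 and 454 in R2, 484 and 651 in S1, 1315 and 1164 in S2, 1245 and 1311 in C1 and 607 and 711 in C2. S2 and C1 were above all 4 other lines in each sex, with no overlap. In resistant lines *GstE5* was below its level in sensitive lines (-0.68 ± 0.07, 1.60-fold lower, adjusted p = 5.01e-06) and below that in controls (-0.80 ± 0.07), with R2 minus S2 at -1.20 ± 0.10 and R1 minus S1 at -0.16 ± 0.10, the latter not called.

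For *GstE6*, male arrays read 4934 and 4882 in R1, 4064 and 3366 in R2, 3819.9 and 3579 in S1, 4666 and 4799 in S2, 6590.2 and 6673 in C1 and 3321 and 3008 in C2. Female arrays read 5013 and 4778 in R1, 4067 and 4262 in R2, 5080.2 and 4971 in S1, 6062 and 6335 in S2, 7525 and 7318 in C1 and 3780.1 and 4209 in C2. C1 was the highest line in both sexes and C2 the lowest in males, so that C1 minus C2 reached 0.98 while resistant minus sensitive was -0.14 ± 0.05, a 1.10-fold difference called as lower (adjusted p = 0.047). The 2 line pairs were called in opposite directions, R1 minus S1 at 0.19 and R2 minus S2 at -0.46.

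*GstE3* followed the same order as *GstE6* at the top. In males its Signal was 5265 and 5410.2 in R1, 4835 and 5180.4 in R2, 5926 and 4833 in S1, 5999 and 6366 in S2, 7321 and 8382 in C1 and 4916 and 4319.7 in C2. In females it was 2780.5 and 2824 in R1, 1890.3 and 1955 in R2, 1723 and 2964 in S1, 3525 and 3726 in S2, 4576 and 4630.5 in C1 and 2193 and 2877 in C2. C1 lay above every other line in both sexes, and the first S1 female pool was the lowest array. The difference of resistant from sensitive lines was -0.23 ± 0.09 (adjusted p = 0.105), a call that was lost when any of 5 single arrays was left out, with a difference of -0.13 without the second pool of S1 females.

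*GstE1* was low in S2. Male Signal of *GstE1* was 1691 and 1664 in R1, 923 and 1066 in R2, 1961 and 2018 in S1, 959 and 790.4 in S2, 2109 and 1366 in C1 and 1891 and 1955 in C2. Female Signal was 1848 and 1798 in R1, 2574 and 2342 in R2, 2084 and 1993 in S1, 882 and 886 in S2, 1762 and 1686 in C1 and 2157 and 2063 in C2. In females both S2 arrays lay below all others, and in males S2 and R2 were low together and overlapped, while R2 held the highest female arrays. Resistant minus sensitive was 0.31 ± 0.07 (adjusted p = 0.00646), made of -0.03 in males and 0.66 in females. The difference between the sexes, -0.69 ± 0.14, was the only one among the members to pass an adjusted p under 0.05 (limma, adjusted p = 0.0485), beside 0.422% of all probe sets tested. Without both S1 female arrays 7 members passed it. The count rose over the whole array too: 225 positive and 301 negative differences passed without these arrays, against 26 and 24 with all arrays. Among the members, 0 passed when any of 19 of the 24 single arrays was left out, and 2 passed without the first pool of S1 females.

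*GstE4* was low in S2 as well. Its arrays read 566 and 532 in R1, 467 and 506 in R2, 526 and 527 in S1, 314 and 309.5 in S2, 523 and 724 in C1 and 276 and 313 in C2 in males. They read 358 and 344 in R1, 174 and 199.8 in R2, 328 and 257 in S1, 172 and 102 in S2, 289.9 and 338 in C1 and 359 and 341 in C2 in females. S2 was the lowest or near the lowest line in both sexes, together with C2 in males and R2 in females. Between resistant and sensitive lines *GstE4* differed by 0.37 ± 0.10 (adjusted p = 0.022), and all 4 differences, 1 for each line pair and sex, were above 0.

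*GstE11*, which lies apart from that cluster on the same arm, separated the lines without separating the selection groups. Males had 461 and 361 in R1, 626 and 500.3 in R2, 325 and 258 in S1, 754 and 768 in S2, 577 and 438 in C1 and 837 and 781 in C2. Females had 586 and 483 in R1, 805 and 742 in R2, 443 and 504 in S1, 1093 and 1149 in S2, 1007 and 983 in C1 and 1069 and 1294 in C2. S2 and C2 were above all other lines in each sex, and S1 was the lowest line in males. Resistant minus sensitive was -0.08 ± 0.08 (adjusted p = 0.58) and was not called, since R1 minus S1 was 0.33 and R2 minus S2 -0.49, both called. *GstE11* was below the controls in resistant lines (-0.59) and in sensitive lines (-0.51).

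Of the other Epsilon genes, *GstE10* and *GstE14* had a line effect (adjusted p = 0.000102 and 0.000748) but no call between resistant and sensitive lines with the sexes averaged. *GstE10* ranged over 335 to 722 (median 618) in males and 257 to 509 (median 371) in females, with R1 below R2 (-0.70) and S1 below S2 (-0.54). *GstE14*, known as *nobo* and needed for the synthesis of the moulting hormone ecdysone, was at 11.7 to 91.8 (median 41.0) in males and 38.2 to 122 (median 71.3) in females, values that reach under the lowest Signal of the filter (50.4), and its line effect was kept when any of 5 of the 24 arrays was left out and lost with the other 19. Within males *GstE14* was called as higher in resistant lines (0.91, adjusted p = 0.046), against -0.53 in females (adjusted p = 0.305), and the difference between the sexes, 1.44 ± 0.39, did not pass (adjusted p = 0.157). *GstE2*, *GstE9*, *GstE12* and *GstE13* had no line effect at the threshold (adjusted p = 0.00455, 0.00108, 0.128 and 0.00118). Without the first pool of S1 females the values were 0.000286 for *GstE2*, 1.42e-05 for *GstE9* and 8.13e-05 for *GstE13*, and without the second *GstE9* and *GstE13* passed as well (1.18e-05 and 0.000575).

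*GstE2* lay at 211 to 544 (median 309) in males and 74.0 to 302 (median 148) in females, and its resistant minus sensitive difference of -0.77 ± 0.15 was negative in both line pairs without being called by the rule. *GstE9* was at 4343 to 8001 (median 6459.6) in males and 1788 to 5474 (median 4662) in females, and R2 minus S2 was -1.01. The values of *GstE12* were 6227 to 8694 (median 7427) in males and 4644 to 7209 (median 5997) in females, and those of *GstE13* were 399 to 632 (median 483) in males and 850.4 to 1158 (median 917) in females. In males the resistant and sensitive arrays of *GstE2* and of *GstE13* did not overlap, the resistant ones being lower, and in females they did. Arrays were apart in this way in males, in either direction, for 10.5% of all probe sets tested.

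The Delta genes lie on arm 3R, where *GstD10*, *GstD9* and *GstD1* to *GstD8* follow each other with no other gene between them and *GstD11* comes after 1 further gene. *GstD9* had the smallest p of all members between resistant and sensitive lines. Its male arrays were at 2095 and 2115 in R1, 1282 and 1314 in R2, 1279 and 1273 in S1, 645 and 417 in S2, 1240.1 and 1259.5 in C1 and 1284 and 1252 in C2. Its female arrays were at 909.7 and 837 in R1, 741 and 735 in R2, 505 and 543 in S1, 269.5 and 292 in S2, 639.7 and 604 in C1 and 755 and 777 in C2. All resistant arrays were above all sensitive arrays in each sex, in males by a narrow margin between R2 and S1, with R1 the highest line and S2 the lowest. *GstD9* was 2.06-fold higher in resistant lines (1.04 ± 0.07, adjusted p = 2.81e-08), with 0.73 ± 0.09 for R1 minus S1 and 1.36 ± 0.09 for R2 minus S2, and was above the controls in resistant lines (0.31) and below them in sensitive lines (-0.74). With the line as a random block its call stood (limma, adjusted p = 0.0231). That fit used 1 correlation between arrays of a line, 0.262, for all probe sets, and kept the line effect of the main fit as its first step. The spread of *GstD9* in that fit included differences between lines of 1 selection, with a standard error of 0.22. How strongly arrays of a line resemble each other was not estimated for *GstD9* itself. With 1 mean a line, the adjusted p of *GstD9* was 0.933 (limma).

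*GstD2* was high in R1. In males Signal of *GstD2* was 922 and 525 in R1, 252 and 269 in R2, 250.1 and 248 in S1, 346 and 315 in S2, 487 and 452 in C1 and 223 and 190.1 in C2. Females gave 245 and 326 in R1, 162 and 202 in R2, 85.8 and 193 in S1, 167 and 237 in S2, 166 and 185 in C1 and 132 and 124 in C2. R1 was above every other line in both sexes, but its male pools were far apart. *GstD2* was called as higher in resistant lines, by 0.53 ± 0.15 (1.45-fold, adjusted p = 0.0269), with 1.31 in the first pair and -0.24 in the second. Its line effect was close to the threshold (adjusted p = 0.000711), and the call was lost when any of 20 of the 24 arrays was left out.

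*GstD3* was the only member with an interaction of line and sex (adjusted p = 0.000963, threshold 0.001), beside 0.245% of all probe sets tested. Male Signal of *GstD3* was 1010.2 and 936 in R1, 727 and 756 in R2, 859 and 857 in S1, 694 and 611 in S2, 864 and 891 in C1 and 809.7 and 795 in C2. Female Signal of *GstD3* was 893 and 923 in R1, 1394 and 1319 in R2, 927 and 843 in S1, 905 and 954 in S2, 1159.6 and 1077 in C1 and 785 and 792 in C2. R1 was the highest line in males, whereas R2 was the highest in females and lay near the bottom in males. Males minus females was -0.87 in R2, -0.51 in S2 and -0.35 in C1 and lay between -0.04 and 0.10 in the other lines. The interaction was called under 7 of 34 alternatives and missed the threshold under 27, with adjusted p-values up to 0.00687. No member had an interaction when any of 20 single arrays was left out, and 2 had one when either pool of S1 females was. Resistant minus sensitive was 0.24 ± 0.04 (adjusted p = 0.000943), called as higher and lost only without the first pool of S2 females among the single arrays.

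*GstD5* and *GstD8* were low in Signal and are given array by array because they differed strongly between the sexes. *GstD5* read 55.9 and 92.8 in R1, 354 and 413 in R2, 181 and 77.8 in S1, 182 and 187 in S2, 258 and 171 in C1 and 187 and 135 in C2 in males. It read 24.6 and 16.9 in R1, 63.8 and 98.1 in R2, 39.6 and 18.5 in S1, 84.6 and 112 in S2, 45.9 and 49.7 in C1 and 70.1 and 59.4 in C2 in females. R2 was the highest line in males and S2 in females, with R1 the lowest in both sexes by its mean, overlapping S1. *GstD5* had a line effect (adjusted p = 0.000268) and differed by -2.18 between R1 and R2, the lines of 1 selection group, while resistant minus sensitive was -0.09 ± 0.22 (adjusted p = 0.824). *GstD8* read 182 and 173 in R1, 109 and 141 in R2, 166 and 141 in S1, 103 and 92.2 in S2, 182 and 154 in C1 and 119 and 60.7 in C2 in males. Females of *GstD8* read 99.1 and 123 in R1, 24.8 and 14.3 in R2, 60.9 and 96.9 in S1, 82.9 and 74.3 in S2, 56.5 and 47.5 in C1 and 47.0 and 63.5 in C2. Only the R2 females stood apart, below all other arrays, and the line effect did not pass (adjusted p = 0.00183).

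*GstD1*, the enzyme known for its dehydrochlorinase activity towards DDT, had the narrowest range of line means among the members: it was at 11118 to 14014 (median 12400.4) in males and 11044 to 15182 (median 13668) in females, with a resistant minus sensitive difference of -0.01 ± 0.05 and no line effect (adjusted p = 0.266). *GstD10*, the neighbour of *GstD9*, was at 36.1 to 249.6 (median 101) in males and 25.7 to 121 (median 62.0) in females. Its resistant minus sensitive difference, 1.03 ± 0.22, was of the size of that of *GstD9*, with R1 the highest line and S2 the lowest, but its line effect missed the threshold (adjusted p = 0.00194), which it passed without the first pool of S1 females (0.000761). *GstD7* was at 56.4 to 232 (median 111) in males and 16.4 to 146 (median 91.7) in females, and *GstD11* at 61.0 to 125 (median 86.1) and 37.1 to 96.4 (median 52.8), neither with a line effect. The untested *GstD4* was at 5.70 to 31.5 (median 18.4) in males and 1.89 to 40.7 (median 12.1) in females, and *GstD6* at 1.03 to 18.3 (median 5.00) and 1.74 to 26.7 (median 6.76).

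Omega enzymes act mainly as thiol transferases and reductases, and the 3 genes lie around *se* on arm 3L. *GstO3* was called as higher in resistant lines (0.52 ± 0.10, 1.43-fold, adjusted p = 0.0014). Male arrays of *GstO3* were at 3141 and 2705 in R1, 3593 and 4203 in R2, 3087 and 2473 in S1, 2300.3 and 2243 in S2, 2672 and 2485 in C1 and 3561 and 3691 in C2. Female arrays of *GstO3* were at 2499 and 2478 in R1, 3141 and 3454 in R2, 1692 and 2716 in S1, 1523 and 1784 in S2, 1822 and 2139 in C1 and 2298 and 3281 in C2. R2 was the highest line and S2 the lowest, and the second pair gave 0.89 against 0.15 in the first. The line effect was close to the threshold (adjusted p = 0.000719), and the call was lost when any of 19 of the 24 arrays was left out. The difference itself stayed at 0.43 to 0.60 over the 24, with adjusted p-values up to 0.00507. *GstO1* was at 523 to 716 (median 612) in males and 789 to 1275 (median 899) in females, and *GstO2* at 2517 to 3894 (median 3327) in males and 2389 to 3422 (median 2879.8) in females, with no line effect. The dimmer probe set of *GstO2* had a resistant minus sensitive difference of 0.45 ± 0.11 that was not called, where the brighter one had -0.0014.

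Zeta enzymes isomerise maleylacetoacetate in the breakdown of tyrosine, and *GstZ1* and *GstZ2* are neighbours on arm 3R. *GstZ1* in males was at 258 and 175 in R1, 196 and 149.9 in R2, 208 and 199.98 in S1, 218 and 255 in S2, 302 and 232 in C1 and 75.5 and 78.9 in C2. In females *GstZ1* was at 397 and 451 in R1, 434 and 366 in R2, 412 and 427 in S1, 443 and 418 in S2, 495 and 539 in C1 and 257 and 172 in C2. C2 was below every other line in both sexes with no overlap, and C1 minus C2 was 1.54 (adjusted p = 1e-05). Both selected groups were thus called as above the controls, resistant lines by 0.37 and sensitive lines by 0.49, with -0.12 between them. *GstZ2* was at 186 to 330.3 (median 254) in males and 67.6 to 208 (median 123) in females, with no line effect.

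The membrane enzyme *Mgstl* was lower in resistant lines. Signal of *Mgstl* in males was 6663 and 4801 in R1, 4095 and 4631 in R2, 6904 and 5893 in S1, 9277 and 10283 in S2, 5940.0 and 5536 in C1 and 5555 and 6725 in C2. For females of *Mgstl* the values were 5254 and 4737 in R1, 3632 and 3337 in R2, 5062 and 6546 in S1, 6841 and 7130.5 in S2, 4686 and 5291 in C1 and 5094 and 5693 in C2. S2 was above and R2 below all other lines in each sex, and R1 and S1 overlapped. Resistant minus sensitive was -0.64 ± 0.08 (1.56-fold lower, adjusted p = 3.2e-05), with -1.08 in the second pair and -0.19 in the first. With the line as a random block the call stood (adjusted p = 0.0440), and with 1 mean a line the adjusted p was 0.933 (limma). A second, much dimmer probe set of *Mgstl* (median Signal 171 against 5546) went the other way, at 0.39 ± 0.19 with an adjusted p of 0.178, and had no line effect. The nuclear *gfzf* was at 336 to 679.8 (median 489) in males and 649.5 to 1244 (median 947) in females, with a resistant minus sensitive difference of 0.40 but no line effect (adjusted p = 0.0106), and in males its resistant arrays were all above its sensitive ones. The second, dimmer probe set of *gfzf*, also tested, had a resistant minus sensitive difference of -0.04 ± 0.12 (adjusted p = 0.866) and was higher in females as the brighter one was (-2.11).

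**Figure D2:**
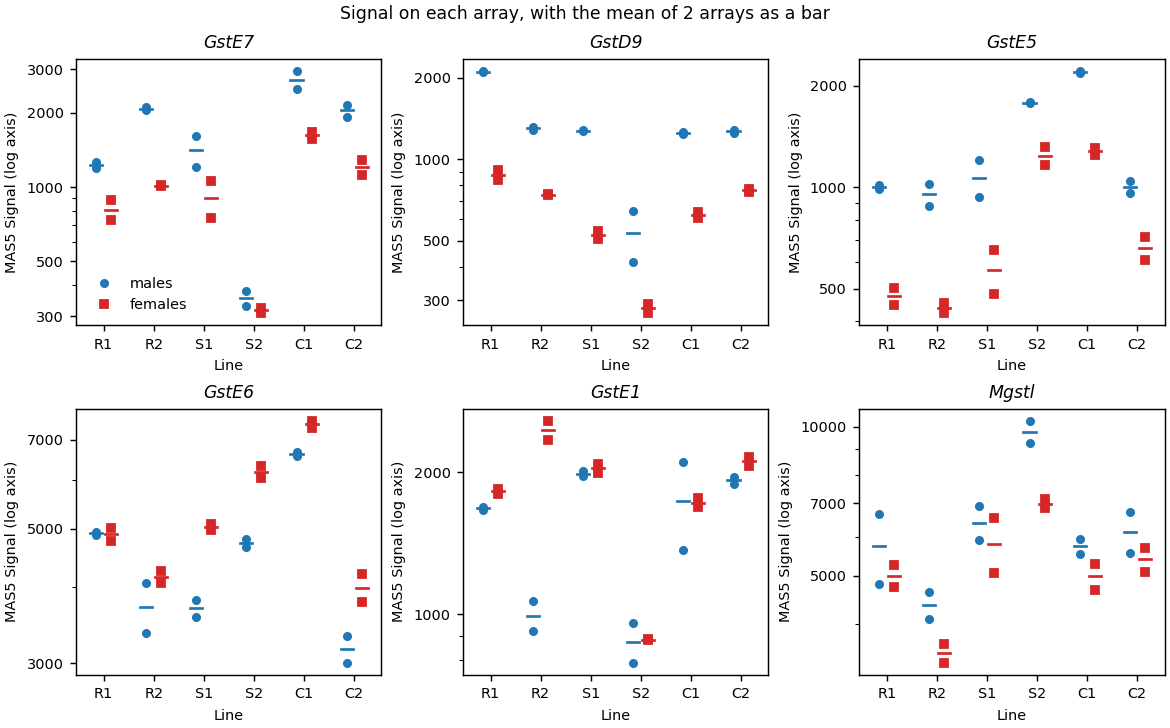
Signal on a log axis (vertical) for each line (horizontal) in males (circles) and females (squares), 1 point an array and a bar for the mean of 2 arrays. S2 sat below all other lines for *GstE7* and *GstD9* in both sexes and above them for *Mgstl*, and S2 and C1 sat above the rest for *GstE5*.

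By that rule, 11 of the 34 members were called between resistant and sensitive lines. *GstD2*, *GstD3*, *GstD9*, *GstE1*, *GstE4*, *GstE7* and *GstO3* were higher, 7 of 34 beside 5.24% of all probe sets tested, and *GstE3*, *GstE5*, *GstE6* and *Mgstl* were lower, 4 of 34 beside 3.55%. Their median difference was -0.01 over the 34 members and 0.03 over all probe sets tested, and the median size of the difference regardless of sign was 0.23 against 0.15. Without both S1 female arrays, or without the first of them, 8 members were called as lower. Without both, calls over all probe sets tested rose too, to 543 lower and 819 higher, against 420 and 620 with all arrays. That count is not given here without the first alone. Within males 7 members were higher and 2 lower, beside 4.43% and 2.9% of all probe sets tested, and within females 7 and 4, beside 4.13% and 3.04%. With the line as a random block 3 were higher, beside 2.59%, and 2 lower, beside 1.66%. Of these, *GstD9* and *Mgstl* had an adjusted p under 0.05, and *GstE7* (0.201), *GstO3* (0.224) and *GstE5* (0.278) did not. With the line number added to that fit, a choice made after seeing the data, the same 5 were called, with adjusted p-values of 0.00442 for *GstD9*, 0.0352 for *Mgstl*, 0.111 for *GstE7*, 0.155 for *GstO3* and 0.238 for *GstE5*.

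The calls also moved with the S1 female pools. *GstE9* and *GstE13* were called as lower in resistant lines without the first pool (-0.52 and -0.40), without the second (-0.27 and -0.31) and without both (-0.50 and -0.37). *GstE2* (-0.91, lower) and *GstD10* (0.90, higher) were called without the first pool alone, and *GstE11* (-0.39) and *GstD5* (-0.56) without both. *GstS1* took opposite signs, with -0.31 called without the first pool and 0.30 without the second, and was at 0.34 without both. Of the 11 members called with all arrays, *GstE3* lost its call without the second pool.

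Each pair of lines was also taken on its own. R1 minus S1 called *GstD2*, *GstD9*, *GstE6* and *GstE11* as higher, beside 4.6% of all probe sets tested, and 0 as lower, beside 3.51%. R2 minus S2 called 6 as higher (*GstD3*, *GstD9*, *GstE1*, *GstE4*, *GstE7* and *GstO3*, beside 5.24%) and 5 as lower (*GstE3*, *GstE5*, *GstE6*, *GstE11* and *Mgstl*, beside 3.84%). The first count depended on single pools: R1 minus S1 called 2 members without the first pool of R1 females, 11 and 10 without the first and second pool of S1 females, and 8 without both. The 2 pairs differed from each other, by a test of the difference itself at an adjusted p under 0.05, for 14 of 34 members, beside 18.5% of all probe sets tested. Of the 11 members called between resistant and sensitive lines, 6 (*GstD3*, *GstD9*, *GstE4*, *GstE5*, *GstO3* and *Mgstl*) had the same sign in both pairs and both sexes, as had 421 of the 1040 probe sets called over the whole array.

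**Figure D3:**
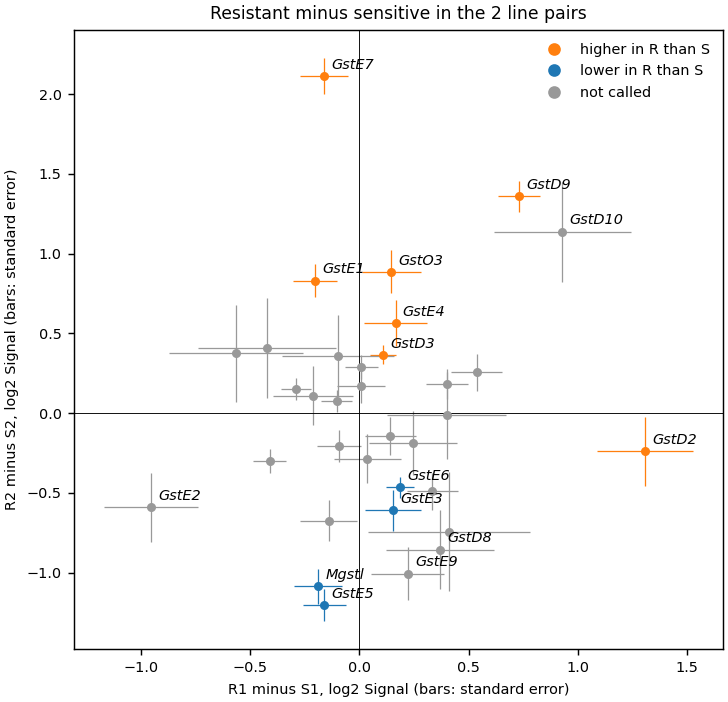
R1 minus S1 (horizontal) and R2 minus S2 (vertical), log2 Signal with standard errors, for 34 genes, coloured by their call between resistant and sensitive lines. *GstD9* lay far from 0 on both axes (0.73 and 1.36), *GstE7* on the vertical one alone (2.11) and *GstD2* on the horizontal one alone (1.31).

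Lines that had the same selection were compared as well. R1 and R2 differed in 12 of 34 members (7.28% of all probe sets tested), 15 members differed between the sensitive lines (9.62%), and 12 between the unselected C1 and C2 (7.22%). Without the second pool of R1 females the first of these counts was 7, and without the second pool of C1 males the last was 7. With 1 value a line, its mean over 4 arrays, and 2 resistant set against 2 sensitive lines, 0 of 34 members passed an adjusted p under 0.05 in limma, beside 0% of all probe sets tested, and the smallest adjusted p of a member was 0.899. At an unadjusted p under 0.05 there were 5, namely *gfzf*, *GstD9*, *GstE13*, *GstE2* and *Mgstl*, and 611 over all probe sets tested. With the line number as a block in that fit, chosen after seeing the data, again 0 passed (smallest adjusted p 0.963), and 6 members, the same 5 and *GstD10*, had an unadjusted p under 0.05.

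Against the controls, whose arrays both contrasts share, sensitive lines had 9 members lower and 2 higher and resistant lines 8 lower and 5 higher. For sensitive minus control the shares of all probe sets tested were 5.84% lower and 2.75% higher, and for resistant minus control 4.54% lower and 3.33% higher. *GstE1*, *GstE7*, *GstE10* and *GstE11* were called as below the controls in both contrasts and *GstZ1* as above them in both. By line means, all selected lines were below both controls for *GstE7* alone. For *GstE10* R2 was the highest of the 6 lines (mean log2 Signal 9.14, against 8.90 in C1 and 9.11 in C2). S2 was above C1 for *GstE11* (9.85 and 9.47), and S1 was above C1 for *GstE1* (10.98 and 10.74). For *GstZ1* all selected lines were below C1. *GstD3*, *GstD9* and *GstO3* were called as above the controls in resistant and below them in sensitive lines. For *GstD3* and *GstO3* the adjusted p was over 0.05 in both contrasts. Single lines departed from this order for *GstD3*, *GstO3* and *GstD9*. For *GstD9* R2 was level with C2 (mean log2 Signal 9.93 and 9.94), while R1 (10.40) was above both controls. R1 was below C2 for *GstO3* (mean log2 Signal 11.40 and 11.62) and below C1 for *GstD3* (9.88 and 9.95). S1 was above C1 for *GstO3* (11.25 and 11.14) and above C2 for *GstD3* (9.77 and 9.64). *Mgstl* was the other way round (resistant -0.28, sensitive 0.35). With the line as a random block 2 members were called for resistant minus control and 3 for sensitive minus control. Calls over all probe sets tested fell as well. For resistant minus control they were 155 higher and 208 lower, against 394 and 538 in the main fit. For sensitive minus control they were 122 higher and 298 lower, against 326 and 691.

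Males and females differed for 30 of the 34 members at an adjusted p under 0.001, with 18 higher in males, beside 36.1% of all probe sets tested, and 12 higher in females, beside 42.4%. Most Delta and Epsilon genes were higher in males (6 of 9 and 8 of 13), and 3 of 4 Theta genes were higher in females. The Epsilon count became 8 with equal array medians and 7 after quantile normalization, the Delta count 6 and 2, and the number of Theta genes higher in females 2 under each. For Signal as deposited, the largest differences were those of *GstD5* (1.77 ± 0.18, 3.40-fold, higher in males), *GstT2* (-1.31 ± 0.07, 2.48-fold, higher in females), *GstD8* (1.17 ± 0.14, higher in males) and *GstZ1* (-1.09 ± 0.09, higher in females), each with the same sign in all 6 lines. Whole flies were used, and fewer cells that make a transcript cannot be told apart from less of it in each cell.

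*GstT2* shows the female excess array by array. Males had 328 and 284 in R1, 303 and 291 in R2, 401 and 305 in S1, 534 and 496 in S2, 438 and 290.4 in C1 and 387 and 494 in C2. Females of *GstT2* had 821 and 929.9 in R1, 804 and 803 in R2, 1006 and 856 in S1, 1093 and 1278 in S2, 902 and 861 in C1 and 792 and 941 in C2. Every female array was above every male array. The same held, among the 34, for *GstE13* and *GstO1* alone, beside 31.5% of all probe sets tested. Its neighbour *GstT1* was at 832 to 1354 (median 1071) in males and 1266 to 2224 (median 1668) in females, *GstT3* at 944 to 1233 (median 1069) and 1093 to 1564 (median 1254), and *GstT4*, the only Theta gene higher in males (0.66), at 2199 to 3687 (median 3016) and 1164 to 2757 (median 1865). None of the 4 had a line effect, and resistant minus sensitive was not called for any. That difference was 0.29 ± 0.07 for *GstT1* and -0.41 ± 0.09 for *GstT2* (limma, adjusted p = 0.00728 and 0.00552). It was -0.07 for *GstT3* and 0.03 for *GstT4*. In females the resistant arrays of *GstT1* were all above its sensitive ones, and in males they overlapped. No share over all probe sets was taken for females alone.

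The count by sex moved with the scaling of the arrays. The median of males minus females over all probe sets tested was -0.04 as deposited, 0.14 with equal array medians and -0.28 after quantile normalization over all arrays. Members higher in males and in females numbered 20 and 7 with equal medians and 13 and 11 after quantile normalization. Calls of 20 members, 13 of them higher in males, were made in the same direction under both, for which no share over all probe sets tested was taken. After quantile normalization *GstD1* was called as higher in females (-0.19), which it was not as deposited. *GstD8*, *GstD10* and *GstD11* took the opposite sign there (-0.06, -0.61 and -1.10, only the last called), and *GstD5* was at 0.57 and lost its call.

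**Figure D4:**
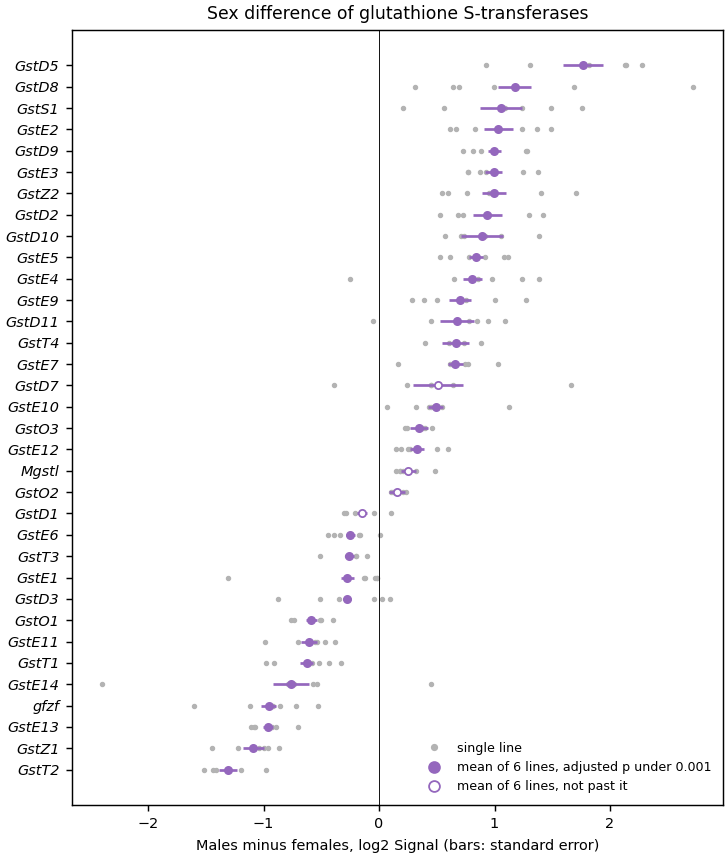
Males minus females on the log2 scale (horizontal) for 34 genes (vertical), with the mean of 6 lines and its standard error in purple, filled where called, and each line in grey. *GstD5* lay at 1.77 at the top and *GstT2* at -1.31 at the bottom.

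*GstS1*, the Sigma enzyme, is abundant in the flight muscle of the fly. Its Signal in males was 8801 and 9774 in R1, 9053 and 8382 in R2, 10806 and 12929.9 in S1, 6993 and 7371 in S2, 8173 and 9074 in C1 and 8823 and 8419 in C2. Female Signal of *GstS1* was 3671 and 4203 in R1, 3272 and 2933 in R2, 2375 and 12938 in S1, 2129.9 and 2129 in S2, 7026 and 7893 in C1 and 5994 and 5696 in C2. It was higher in males (1.06 ± 0.18), with no line effect over all arrays (adjusted p = 0.0656) but one without the first (1.46e-08), the second (5.09e-07) or both pools of S1 females (1.26e-07), and had a resistant minus sensitive difference of -0.01 ± 0.22. The 2 pools of S1 females differed by 2.45 on the log2 scale, and the summed Signal of 6 flight muscle genes in them was 32839 and 91882. In S2 females, the lowest of the female groups for *GstS1*, that sum was 18769 and 20787. The sum ranged from 18769 to 91882 over females and from 37425 to 92830 over males, and its part in the levels of *GstS1* was not tested.

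**Figure D5:**
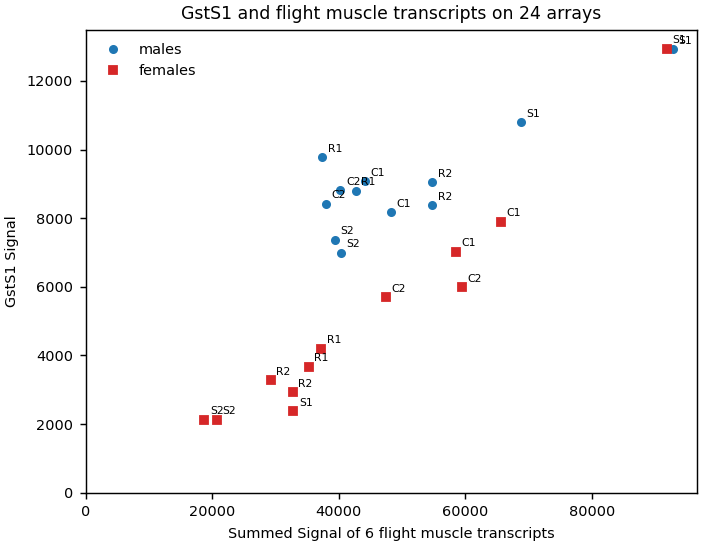
Signal of *GstS1* (vertical) against the summed Signal of 6 flight muscle genes (horizontal) on 24 arrays, males as circles and females as squares, labelled by line. The second pool of S1 females lay at 12938 and 91882, beside an S1 male array, and the first at 2375 and 32839.

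Other genes of glutathione synthesis, reduction, NADPH supply and conjugate export, their regulators and further proteins with the glutathione transferase fold were counted for comparison, 33 of them tested. A line effect was found for 5, *Grx1*, *Men*, *cnc*, *maf-S* and *Clic*, beside the 12.3% of all probe sets tested. Between resistant and sensitive lines 0 were called as lower and 1 as higher, beside 3.55% and 5.24%. That was *Grx1*, a glutaredoxin, which reduces disulfides with glutathione, and it was higher in resistant lines (0.43, with 0.47 in the first and 0.39 in the second pair). The regulator *cnc* was at -0.04 between resistant and sensitive lines (-0.57 in the first pair and 0.49 in the second) and its partner *maf-S* at 0.07 (-0.30 and 0.43). *Men*, a malic enzyme that supplies NADPH, was at -0.09 and was called as below the controls in resistant (-0.31) and sensitive lines (-0.23). The median of resistant minus sensitive over the 33 genes was -0.04. By sex 12 were higher in males and 13 in females, beside 36.1% and 42.4% of all probe sets tested.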

How the data were processed

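Whole-fly RNA was hybridised by the authors to 24 Affymetrix Drosophila GeneChip 2.0 arrays. The deposited intensity is the MAS5 Signal of each probe set, on a linear scale, which weighs perfect-match against mismatch probes and which the methods describe as scaled to 1 median, a target that the deposited array medians do not meet. Control probe sets were left out, and without detection calls the filter was on Signal: ordered by the value reached in 12 arrays or more, as many probe sets as the authors' own filter kept were tested, the lowest reaching 50.4. Signal was raised to a floor of 1 (325 of 284112 values), log2 transformed and fitted in limma 3.58.1 under R 4.3.3 with an intensity trend and 1 mean for each of 12 groups, following the authors' factorial model and their thresholds. Adjusted p-values are Benjamini-Hochberg values over all probe sets tested. The fit and its calling rule were tested on simulated data, with spread between pools and a change added alike to both resistant lines. Those data held no differences between lines of 1 selection, so that the rule was not tested against such differences. The depth of an array has no count, and 2 arrays a group limit the precision.

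Genes were named through the array annotation, neighbours through the RefSeq annotation. The members, the lists and the tests were chosen with earlier results of these data known. Values array by array are given for up to 10 members called between resistant and sensitive lines, the 6 with the smallest p for the line effect, the 4 with the largest sex difference and any with an interaction. *GstO3*, the remaining call, and *GstS1* were shown in the same way after their values were seen. The alternatives changed the floor, an added constant of 50, the normalization between arrays, the filter, the variance model, the test, the probe set and the arrays, or took the line as a random block. The line number as a block was added after seeing the data.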

Additional observations from a re-analysis of the deposited data

Results flagged for a closer look

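The resistant minus sensitive difference was not the same in the 2 pairs of lines for 14 of 34 members, beside 18.5% of all probe sets tested. This was by a limma test of the difference itself (adjusted p under 0.05). In the values that follow, R2 minus S2 is subtracted from R1 minus S1 on the log2 scale. The first pair was the more positive for *GstD2* (1.55), *GstD8* (1.22), *GstE9* (1.23), *GstE5* (1.04), *Mgstl* (0.90), *GstE11* (0.82), *GstE3* (0.76) and *GstE6* (0.65). The second pair was the more positive for *GstE7* (-2.28), *GstE1* (-1.03), *GstO3* (-0.74), *GstD9* (-0.63), *GstT3* (-0.44) and *GstD3* (-0.26). For *GstE1* the difference between resistant and sensitive lines also depended on the sex, with males minus females at -0.69. Groups of 2 arrays are too small for a check of single outlying arrays.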

How the results depend on the processing

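Leaving out single arrays gave 16 to 19 members higher in males, 11 to 12 higher in females, 12 to 20 with a line effect and 0 to 2 with an interaction. Resistant minus sensitive gave 5 to 8 higher and 3 to 8 lower, resistant minus control 10 to 18 called, sensitive minus control 8 to 15, R1 minus S1 2 to 11 and R2 minus S2 9 to 16. The pairs differed for 12 to 18 members and the sexes for 0 to 2, and R1 against R2 gave 7 to 14, S1 against S2 11 to 16 and C1 against C2 7 to 13. Without both S1 female arrays 2 members had an interaction and 8 were called for R1 minus S1. Without them 8 members were called as lower in resistant lines, and 7 differed between the sexes. Over all probe sets tested, calls as lower in resistant lines were then 543, against 420 with all arrays, and interactions 50 against 29. R1 minus S1 then called 593 as higher and 415 as lower, against 545 and 416.

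The interaction had 0 members with the added constant of 50, the floor of 16, all non-control probe sets, no variance trend or the replicate block, and 2 by the methods' analysis of variance. The difference of resistant minus sensitive between the sexes had 0 members with all non-control probe sets or no variance trend and 3 by that analysis of variance, which also gave 4 members higher in resistant lines and 7 that differed between R1 and R2. With equal medians 7 members were higher in females. The line as a random block gave 3 higher and 2 lower for resistant minus sensitive, 2 called for resistant minus control and 3 for sensitive minus control, and with the line number added, after seeing the data, 3, 2, 3 and 4. Over all probe sets tested the random block called 155 higher and 208 lower for resistant minus control, and 122 and 298 for sensitive minus control. With the line number added, these counts were 194 and 246, and 143 and 350. The cause of these changes was not tested.

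Values that changed sign included resistant minus sensitive of *Mgstl* (0.39) and *gfzf* (-0.04) with their dimmer probe sets, and males minus females of *GstD8* (-0.058), *GstD10* (-0.61) and *GstD11* (-1.10) after quantile normalization. Resistant minus sensitive of *GstD9*, *GstE5* and *GstE7* kept its call, which rests on an unadjusted p, in all alternatives that used the calling rule. With the line as a random block the adjusted p of the last 2 was 0.278 and 0.201. With 1 mean a line none of them passed (limma, adjusted p of 0.933 for *GstD9*, 0.944 for *GstE5* and 0.933 for *GstE7*). The replicate numbers did not pair the arrays: differences between pools of 66 pairs of groups correlated at -0.15 to 0.18 (median 0.01), with 4 over 0.1. With the replicate block the interaction had 0 members, and *GstD2* lost its call between resistant and sensitive lines.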
